A study of Homo sapiens with 3 samples.

Results

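The 9 genes described here encode RNA-binding and mRNA-localization proteins: the proximity candidates that the study of mutant p53 followed (AKAP1, ZC3H7B and TUT4), together with paralogs or partners in mRNA tailing and in translation at mitochondria (CLUH, SYNJ2BP, LARP1, LARP4, TUT7 and ZC3H7A). They were found by gene name in a table of ribosome footprints that lists 63241 genes, and each name matched 1 gene. All 9 passed the filter on low counts, which left 19820 genes tested, so every member has a value in every comparison. The rule that chose them uses gene names and no footprint value, although earlier results of these data were known when they were chosen.

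Ribosome profiling sequences the mRNA fragments that ribosomes protect from nuclease, so a gene's footprint count depends on how much of its mRNA is present and how many ribosomes each mRNA carries. No matched measurement of total mRNA was used here, and these contributions cannot be told apart. Nor can a shift in the share of cells be told from a change within each cell. The cells were HEK293T, derived from human embryonic kidney and expressing the large T antigen of SV40, expressing wild-type p53 (WT), p53 with the G245S substitution or p53 with the R273H substitution, both in the DNA-binding domain. Each group was sampled from 3 dishes, giving 9 libraries with totals of 18719212 to 24595383 counts.

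Every group therefore carries an added p53 construct in the same host, and no group without one was analysed here. The study describes lines made with lentivirus and selected with puromycin, while the labels give both stable and transient expression and name the wild-type construct in the treatment field of the mutants. Groups were taken from the sample titles. The labels state that the 3 dishes of each group were pooled when reverse transcription was done, and the dishes appear as separate columns in the table. A group is 1 cell population and 1 pool, so mutation, population and pool cannot be told apart, and p-values measure the spread between dishes only.

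MDM2 and CDKN1A, which wild-type p53 switches on, were used to check the labels. MDM2 was at 860 ± 49.3 CPM (counts scaled to library size, SD, n = 3) with WT and at 76.8 ± 4.20 and 76.7 ± 2.94 CPM with G245S and R273H, and CDKN1A was at 61.1 ± 2.27, 16.1 ± 0.345 and 13.9 ± 0.515 CPM. Of 5 epithelial markers, KRT18 ranged from 108 to 120 CPM and KRT8 from 32.4 to 44.5 CPM, CDH1 and EPCAM stayed at or below 8.58 CPM, and KRT19 was at 0 to 0.0508 CPM. Of 4 embryonic kidney markers, WT1, PAX2 and LHX1 were present and PAX8 did not pass 0.102 CPM. The summed kidney list moved with the groups, from 19.3 to 23.3 CPM with WT, 26.8 to 28.3 CPM with G245S and 27.3 to 28.2 CPM with R273H, and its part in the results was not tested. The 5 blood markers summed to at most 2.76 CPM, with CD3E and HBB at 0. Among 5 fibroblast markers COL1A1 and LUM were present and COL1A2 did not pass 0.0542 CPM, and the list summed to 42.2 to 51.9 CPM in all groups. Single markers moved within these sums. KRT8 was at 33.9 ± 1.25 CPM with WT, 35.3 ± 0.689 CPM with G245S and 43.4 ± 1.07 CPM with R273H (log2 0.36 for R273H against WT, edgeR adjusted p = 1.3e-06). LUM was at 14.5 ± 0.718, 15.1 ± 0.296 and 20.2 ± 1.24 CPM (log2 0.48 for R273H against WT, edgeR adjusted p = 6.2e-06), and PDGFRA rose by 0.57 on the log2 scale with R273H (edgeR adjusted p = 0.0440). COL1A1 fell from 32.5 ± 1.54 CPM with WT to 28.2 ± 2.78 CPM with G245S and 27.5 ± 1.35 CPM with R273H (edgeR adjusted p = 0.0178 and 0.00448). The part of these markers in the results was not tested.

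By their known roles the proteins form 4 groups. AKAP1 anchors protein kinase A at the outer mitochondrial membrane and binds mRNAs there, CLUH binds cytosolic mRNAs that encode mitochondrial proteins, and SYNJ2BP is an outer-membrane protein that helps to tether an mRNA at the mitochondrial surface. LARP1 binds mRNAs with a terminal oligopyrimidine tract, the class that encodes ribosomal proteins, and LARP4 binds poly(A) and the poly(A)-binding protein. ZC3H7A and ZC3H7B are CCCH zinc-finger proteins linked to microRNA biogenesis. TUT4 and TUT7 add uridines to the ends of RNAs, including short-tailed mRNAs and let-7 precursors.

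The study derived an RNA motif from the sites where p53 was cross-linked to RNA, with the hexamer GGCTGG at its centre. It reads this motif as a marker of structured RNA from Alu elements, abundant repeats of the genome, not as a recognized sequence. The 3′ untranslated regions (3′ UTRs) of the 9 genes were searched for the hexamer. The search used the transcript strand of 1 transcript per gene (GENCODE annotation, GRCh38). ZC3H7B held the most matches of the 9, with 6 in 2718 bases (2.21 per kb), and CLUH had 4 in 1207 bases (3.31 per kb), where all 3′ UTRs pooled had 0.589 per kb. Windows of these 2 genes are shown because they held the most matches per kb, and not all windows of ZC3H7B are printed. Each sequence below is the match in capitals with 10 bases on either side, read 5′ to 3′ on the transcript strand.

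CLUH match 1 (chr17:2690324-2690349, minus strand): atcagttcccGGCTGGggggcaggtg
CLUH match 2 (chr17:2690033-2690058, minus strand): tctgtggcggGGCTGGagggctgggg
CLUH match 3 (chr17:2690025-2690050, minus strand): ggggctggagGGCTGGggtgcacttt
CLUH match 4 (chr17:2689780-2689805, minus strand): ccgggggcgaGGCTGGgggaagcggg
ZC3H7B match 1 (chr22:41357758-41357783, plus strand): caaagctcagGGCTGGggagcctggg
ZC3H7B match 3 (chr22:41358313-41358338, plus strand): gctgcctgggGGCTGGggaggggagg
ZC3H7B match 6 (chr22:41359814-41359839, plus strand): tagggccccaGGCTGGgaggctcaga

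Matches 2 and 3 of CLUH lie 8 bases apart, so their windows overlap. SYNJ2BP had 4 matches in a 3′ UTR of 6492 bases, LARP1 had 3 and LARP4 had 2. TUT7 had 1 match, and AKAP1, TUT4 and ZC3H7A had 0 in 3′ UTRs of 1020, 660 and 720 bases. Of 19550 protein-coding genes with a 3′ UTR, 43.3% held at least 1 match, and 45.8% held the reverse complement CCAGCC. The study searched for its consensus on both strands, unlike the counts of matches given here. SYNJ2BP and ZC3H7B held CCAGCC 5 times each in the 3′ UTR, LARP1 held it 3 times and CLUH 2 times. AKAP1 and TUT4 held it 1 time each, and LARP4, TUT7 and ZC3H7A held it 0 times. A match says only that these letters are present, and whether a match lies in an Alu element was not examined. No relation between matches and footprints was tested.

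Ordered by footprints per kb of coding sequence, which allows genes to be compared, LARP1 was the highest, with a median of 81.6 CPM per kb over the 9 libraries, and LARP4 followed at 70.9 CPM per kb. CLUH had a median of 39.3 and AKAP1 of 27.8 CPM per kb, and CLUH was the higher in each of the 9 libraries, although their ranges over all groups overlapped (CLUH from 30.1, AKAP1 up to 30.6 CPM per kb). ZC3H7A stood at 24.0 CPM per kb. ZC3H7B, SYNJ2BP and TUT4 had medians of 19.2, 18.8 and 18.6 CPM per kb and overlapped one another. TUT7 was the lowest, at 9.21 CPM per kb, below the median of 15.4 CPM per kb over 13615 coding genes tested. The other 8 lay above that median.

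**Figure D1:**
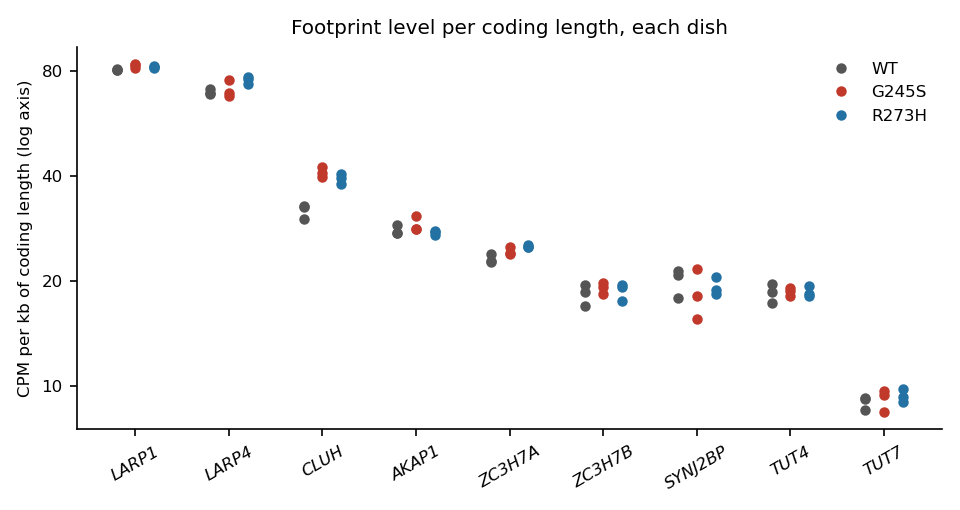
Footprint level of each gene in CPM per kb of coding sequence (y axis, log scale) in each of the 9 libraries, coloured by group. LARP1 and LARP4 lie above the other genes, TUT7 lies below them, and only CLUH shows the WT dishes well below both mutants.

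With G245S, 1 of the 9 genes passed the test and rose, CLUH, and 8 did not pass. The test was edgeR's quasi-likelihood test at a Benjamini-Hochberg adjusted p below 0.05, by which 24.7% of all genes tested were called, 12.6% higher and 12.1% lower. With R273H, 3 of the 9 rose, CLUH, LARP4 and ZC3H7A, and 6 did not pass, where 28.8% of all genes were called, 14.2% higher and 14.6% lower. All of these calls were higher with the mutant. The 9 were not tested as a set, and counts of 1 and 3 of 9 are too small to say whether they differ from all genes. The median log2 fold change of the 9 was 0.035 with G245S and 0.028 with R273H, beside -0.00069 and -0.0024 over all genes. Both comparisons use the same WT dishes.

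**Figure D2:**
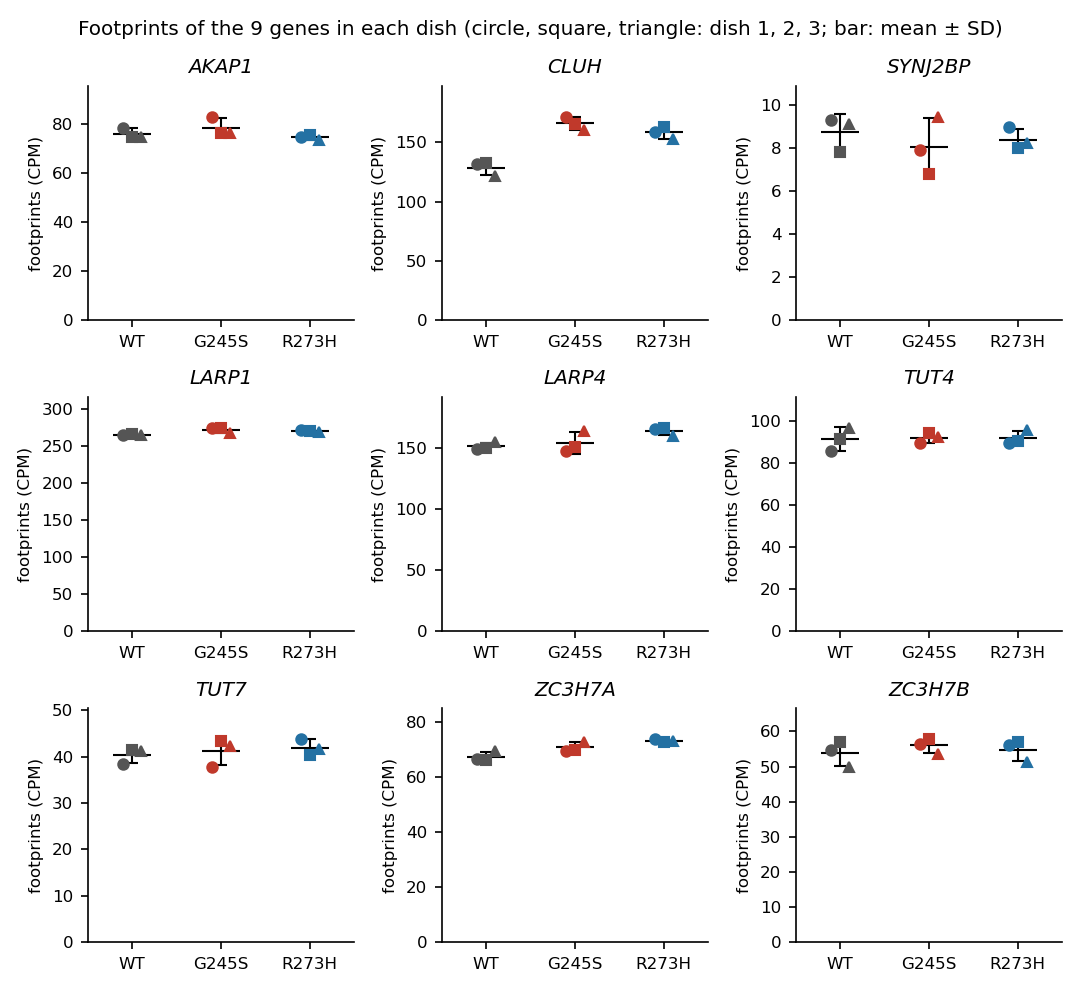
Footprints of the 9 genes in CPM (y axis, from 0) in each dish of the WT, G245S and R273H groups, with the mean and SD of each group. The 3 WT dishes of CLUH (122 to 133 CPM) lie below the 6 mutant dishes (153 to 172 CPM), while the groups of AKAP1 and TUT4 lie at about the same height.

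CLUH footprints were 132, 133 and 122 CPM in the 3 WT dishes, 172, 165 and 161 CPM with G245S, and 159, 163 and 153 CPM with R273H. All 6 mutant dishes lay above all 3 WT dishes. The mean rose from 129 ± 6.13 CPM (SD, n = 3) to 166 ± 5.52 CPM with G245S and to 158 ± 5.27 CPM with R273H. The fold was 1.29 with G245S (log2 0.37, SE 0.036, 95% interval 0.29 to 0.44, edgeR adjusted p = 8.2e-09) and 1.23 with R273H (log2 0.30, SE 0.035, interval 0.23 to 0.37, edgeR adjusted p = 2.1e-07). In size this was not extreme, since 17.8% of all genes had a larger log2 fold change in either direction with G245S and 25.2% with R273H. Between the mutants CLUH differed by 0.066 on the log2 scale (interval -0.0038 to 0.14, edgeR adjusted p = 0.353), and their dishes overlapped. CLUH passed the test under all 17 alternative settings in both mutants, at log2 0.33 to 0.39 with G245S and 0.26 to 0.33 with R273H.

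The CLUH gene spans chr17:2689386-2712663 on the minus strand, with 26 exons, a coding sequence of 4047 bases and a coding GC content of 63.1%. It has 9 annotated pseudogenes, none of which passed 0.238 CPM, so few reads were credited to those copies. MIR6776, inside the gene on the same strand, was at 0 counts, and an unnamed long noncoding RNA overlaps it on the other strand. How strand was handled in counting is not given in the sources used here, so reads of that RNA and of CLUH cannot be told apart.

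AKAP1, the kinase anchor, gave 78.4, 74.4 and 74.6 CPM with WT, 82.9, 76.3 and 76.1 CPM with G245S, and 74.8, 75.4 and 73.4 CPM with R273H. Apart from the first G245S dish, all values lay within 73.4 to 78.4 CPM. The log2 difference from WT was 0.047 with G245S (edgeR adjusted p = 0.428) and -0.024 with R273H (edgeR adjusted p = 0.692). In fold the 95% intervals ran from 0.976 to 1.09 and from 0.930 to 1.04. All 3 G245S dishes lay above all 3 R273H dishes, by 0.072 on the log2 scale (edgeR adjusted p = 0.382). AKAP1 was the only one of the 9 whose dishes did not overlap between the mutants, as those of 21.5% of all genes did not (11.6% with G245S higher and 9.86% with it lower).

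Set against AKAP1 within each library, CLUH gave a ratio of CPM of 1.70 ± 0.0748 with WT, 2.12 ± 0.0471 with G245S and 2.12 ± 0.0422 with R273H (SD, n = 3). The WT ratios did not overlap those of either mutant (exact permutation test, two-sided p = 0.1 for each, the smallest that 3 against 3 allows, and 0.4 adjusted over 12 ratio tests). A ratio within a library does not depend on how libraries were scaled, but no change in it passed after adjustment. CLUH and AKAP1 differ in coding length (4047 and 2712 bases) and coding GC content (63.1% and 56.2%). The ratio can therefore carry trends in either that run with the groups.

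SYNJ2BP was the least counted of the 9, from 6.81 to 9.48 CPM, and its groups overlapped. Means were 8.76 ± 0.821 CPM with WT, 8.07 ± 1.34 CPM with G245S and 8.41 ± 0.512 CPM with R273H. The intervals of the fold, 0.784 to 1.09 with G245S and 0.819 to 1.12 with R273H, are the widest of the 9. Fold values within those intervals remain compatible with these data. Beside it, the annotated read-through gene SYNJ2BP-COX16 held 62.8 to 76.0 CPM, and SYNJ2BP took 9.36% to 13.1% of the counts of both. The genes share exons, and the split of reads between them is uncertain. The read-through gene fell by 0.24 on the log2 scale with G245S (edgeR adjusted p = 1.8e-05) and fell by 0.21 with R273H (edgeR adjusted p = 6.1e-05), and was named after its values were seen. COX16, which overlaps the read-through gene on the same strand, was at 65.0 to 72.7 CPM. It fell by 0.15 on the log2 scale with G245S (edgeR adjusted p = 0.0040) and was at -0.085 with R273H (edgeR adjusted p = 0.0791). Reads of the read-through gene may come from either of the genes it joins, so its fall cannot be assigned to SYNJ2BP.

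LARP1, the reader of terminal oligopyrimidine mRNAs, was the most evenly measured: 265 ± 0.713 CPM with WT, 272 ± 3.98 CPM with G245S and 270 ± 1.41 CPM with R273H. All WT dishes lay at or below 266 CPM and all mutant dishes at or above 267 CPM, so the groups did not overlap. The difference was nonetheless 0.035 on the log2 scale with G245S (edgeR adjusted p = 0.339) and 0.026 with R273H (edgeR adjusted p = 0.474). The 95% interval of the fold ran from 0.989 to 1.06 and from 0.983 to 1.05. Altogether 3 of the 9 genes had every G245S dish above every WT dish (CLUH, LARP1 and ZC3H7A), where 37.4% of all genes had groups that did not overlap, 18.6% with the mutant higher and 18.8% with it lower. With R273H LARP4 joined them, making 4 of 9, where 41.2% of all genes did not overlap, 20.3% with the mutant higher and 20.9% with it lower.

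LARP4, the poly(A)-binding family member, was at 149, 150 and 154 CPM with WT, 148, 150 and 164 CPM with G245S, and 165, 166 and 160 CPM with R273H. The R273H dishes lay above all WT dishes, and the third G245S dish stood with them, away from the other two of its group. With R273H LARP4 rose 1.08-fold (log2 0.12, SE 0.034, interval 0.047 to 0.19, edgeR adjusted p = 0.0102). The call was lost when the dependence on GC content and coding length was removed by a spline (log2 0.064, edgeR adjusted p = 0.0678) and without R273H dish 2 (log2 0.10, edgeR adjusted p = 0.0552). With G245S the difference was 0.030 (edgeR adjusted p = 0.587), and without the third G245S dish it was -0.015. FAM186A overlaps LARP4 on the other strand, and the pseudogene LARP4P was at 0.172 to 0.919 CPM.

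Between the mutants no member passed the test, against 2.59% of all genes (1.86% higher and 0.732% lower with G245S), and DESeq2 also called 0. At an unadjusted edgeR p below 0.05 there was 1, LARP4, which was lower with G245S than with R273H by -0.087 on the log2 scale (unadjusted p = 0.0158, edgeR adjusted p = 0.183). Without the third G245S dish the difference was -0.13 and passed (edgeR adjusted p = 0.0189). The median of the 9 was 0.0066 between the mutants, beside 0.00059 over all genes. The ratio of LARP1 to LARP4 was 1.76 ± 0.0346 with WT, 1.77 ± 0.123 with G245S and 1.65 ± 0.0310 with R273H. Only the R273H ratios did not overlap those of WT (exact permutation test, two-sided p = 0.1, 0.4 adjusted over the 12 tests).

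**Figure D3:**
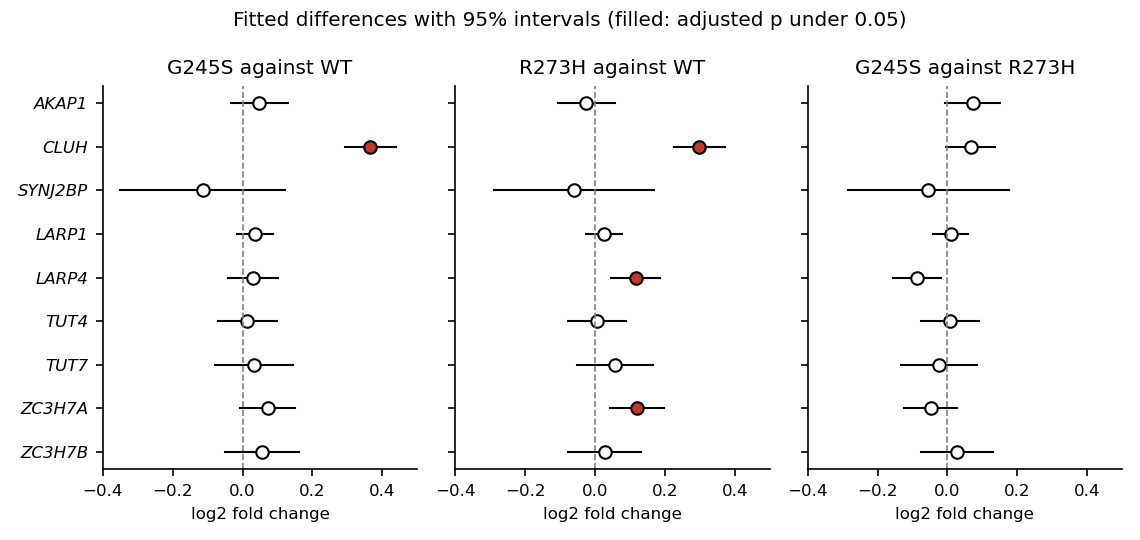
Fitted log2 fold change of each gene (x axis) with its 95% interval in the 3 comparisons, filled where the edgeR adjusted p was below 0.05. CLUH at 0.37 and 0.30 stands to the right in both mutants, LARP4 and ZC3H7A are filled at 0.12 with R273H, and no point is filled between the mutants.

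ZC3H7A, the paralog of ZC3H7B, was at 66.6, 66.2 and 69.4 CPM with WT, 69.6, 69.9 and 72.9 CPM with G245S, and 74.0, 72.7 and 73.1 CPM with R273H. The WT dishes were the lowest 3 of the 9, though the gap between the highest WT dish and the lowest G245S dish was small. With R273H ZC3H7A rose 1.09-fold (log2 0.12, SE 0.037, interval 0.044 to 0.20, edgeR adjusted p = 0.0156), and with G245S the difference was 0.072 (edgeR adjusted p = 0.182). The R273H call was lost with the dependence on GC content and coding length removed (log2 0.062, edgeR adjusted p = 0.149). It was also lost without WT dish 1, WT dish 2 or R273H dish 1 (log2 0.11 in each, edgeR adjusted p = 0.0608, 0.0750 and 0.0621). Between the mutants ZC3H7A differed by -0.048 (interval -0.12 to 0.028, edgeR adjusted p = 0.568).

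Among the markers KRT8, LUM and PDGFRA also rose with R273H, while COL1A1 fell. The kidney markers PAX2, LHX1 and WT1 rose with R273H by 0.35, 0.64 and 0.27 on the log2 scale (edgeR adjusted p = 0.0359, 0.00115 and 0.0122). With G245S LHX1 and WT1 rose by 0.51 and 0.32 (edgeR adjusted p = 0.0120 and 0.00474) and COL1A1 fell. The other tested markers did not pass. The part of markers in the calls of CLUH, LARP4 and ZC3H7A was not tested. Coding length moved with the groups. Across 10886 genes, Spearman's rho between coding length and a library's deviation from the mean of all libraries was -0.18 to -0.14 with WT, -0.011 to 0.12 with G245S and 0.14 to 0.19 with R273H. The same rho for coding GC content ranged from -0.18 to 0.26 with WT, -0.18 to 0.34 with G245S and -0.42 to -0.14 with R273H. LARP4 and ZC3H7A have a coding GC content of 42.3% and 40.7%. TUT4 and TUT7, at 41.0% and 41.4%, did not pass with R273H. Whether GC content set any of these calls was not tested. With both trends removed CLUH remained at log2 0.34 with G245S and 0.31 with R273H and passed the test in each.

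ZC3H7B, its paralog among the zinc-finger proteins, gave 54.6, 57.1 and 49.8 CPM with WT, 56.4, 58.0 and 53.7 CPM with G245S, and 56.3, 57.0 and 51.2 CPM with R273H. The groups overlapped, and dish 3 was the lowest in each. The log2 difference from WT was 0.056 with G245S (edgeR adjusted p = 0.479) and 0.028 with R273H (edgeR adjusted p = 0.734), with fold intervals of 0.966 to 1.12 and 0.949 to 1.10. The ratio of ZC3H7A to ZC3H7B was 1.26 ± 0.122 with WT, 1.27 ± 0.0802 with G245S and 1.34 ± 0.0795 with R273H, and its groups overlapped (exact permutation test, two-sided p = 0.9 and 0.4 against WT).

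TUT4 gave 85.5, 91.7 and 96.9 CPM with WT, 89.4, 94.3 and 92.6 CPM with G245S, and 89.3, 90.3 and 95.7 CPM with R273H. The WT dishes spanned all of the mutant dishes. The difference from WT was 0.013 on the log2 scale with G245S (edgeR adjusted p = 0.857) and 0.0069 with R273H (edgeR adjusted p = 0.923), with fold intervals of 0.952 to 1.07 and 0.948 to 1.06. PRPF38A overlaps TUT4 on the other strand.

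Its paralog TUT7 was at 40.3 ± 1.70, 41.1 ± 2.96 and 41.9 ± 1.82 CPM with WT, G245S and R273H, and the groups overlapped. The difference from WT was 0.033 with G245S (edgeR adjusted p = 0.716) and 0.058 with R273H (edgeR adjusted p = 0.454), with fold intervals of 0.947 to 1.11 and 0.965 to 1.12. TUT4 had 2.27 ± 0.0727 times the CPM of TUT7 with WT, 2.24 ± 0.107 times with G245S and 2.19 ± 0.139 times with R273H (exact permutation test, two-sided p = 0.6 for each mutant against WT). Between the mutants the 5 genes not yet given for that comparison (SYNJ2BP, LARP1, TUT4, TUT7 and ZC3H7B) differed by -0.055 to 0.028 on the log2 scale, with edgeR adjusted p-values of 0.842 to 0.963.

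**Figure D4:**
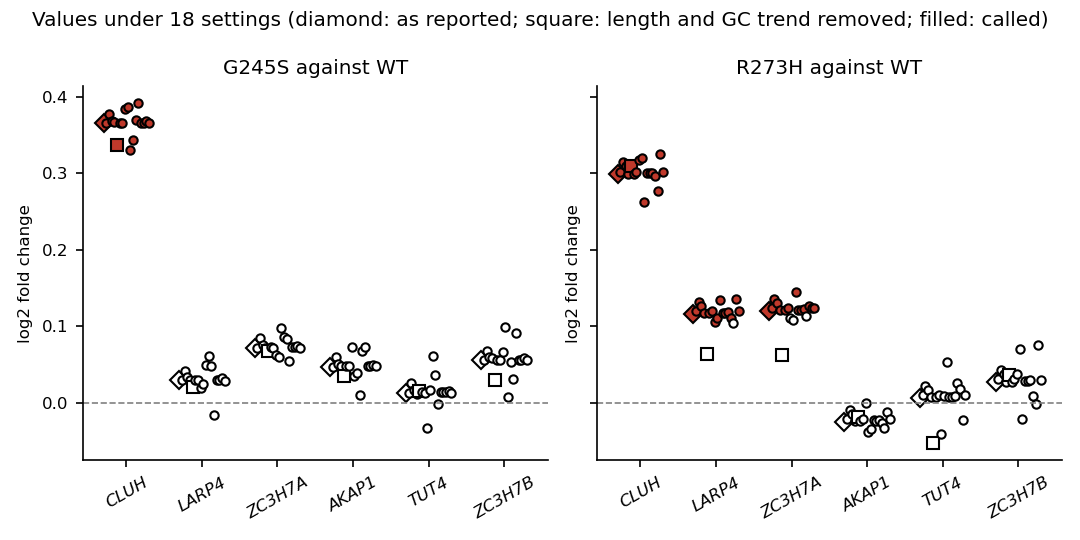
Log2 fold change of 6 genes (y axis) under 18 settings, the reported one (diamond) and 17 alternatives, of which the square has the dependence on GC content and coding length removed, with called values filled. All CLUH points are filled, while LARP4 and ZC3H7A with R273H drop to 0.064 and 0.062 and lose the call at the square, and AKAP1, TUT4 and ZC3H7B stay near 0.

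Related genes were read from 6 lists, none of which was tested as a set. Beside their counts below stand the shares of all genes called. With G245S these were 24.7%, 12.6% higher and 12.1% lower. With R273H they were 28.8%, 14.2% higher and 14.6% lower. In the list of other tail enzymes and their partners, 10 of 12 genes were tested. With G245S 1 was higher and 1 lower, and with R273H 1 was higher. MTPAP, the mitochondrial poly(A) polymerase, rose from 60.0 ± 3.86 CPM with WT to 69.8 ± 0.498 CPM with G245S and 71.4 ± 1.47 CPM with R273H (edgeR adjusted p = 0.00032 and 3.6e-05). DIS3L2, the exonuclease that degrades uridylated RNAs, was at 35.3 ± 1.18 CPM with WT and 32.0 ± 0.786 CPM with G245S (edgeR adjusted p = 0.0487), a call kept in 4 of the 17 alternatives. LIN28B, which binds let-7 precursors, gave 69.0 ± 2.18, 71.4 ± 2.37 and 72.1 ± 0.828 CPM and did not pass.

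All 11 genes of microRNA biogenesis were tested, and in each mutant 3 were higher and 2 lower. Over all genes, 24.7% were called with G245S and 28.8% with R273H. DICER1, which cuts precursors to mature microRNAs, rose from 57.6 ± 1.50 CPM to 65.0 ± 4.22 CPM with G245S and 65.3 ± 1.67 CPM with R273H (edgeR adjusted p = 0.00452 and 0.00256). AGO2, the slicing Argonaute, rose from 54.8 ± 1.87 CPM to 61.1 ± 1.09 and 61.8 ± 0.977 CPM (edgeR adjusted p = 0.00535 and 0.00168). TRIM71, a let-7 target and RNA-binding ubiquitin ligase, had the largest difference of the list and low counts, from 3.59 ± 0.144 CPM to 5.00 ± 0.418 and 5.65 ± 0.824 CPM (edgeR adjusted p = 0.0165 and 0.00063). TARBP2, the partner of DICER1, fell from 48.1 ± 2.19 CPM to 42.7 ± 2.72 and 40.8 ± 1.81 CPM (edgeR adjusted p = 0.0156 and 0.000805). AGO4 fell from 11.8 ± 1.03 CPM to 9.67 ± 1.17 and 9.18 ± 0.463 CPM (edgeR adjusted p = 0.0345 and 0.00491). Some G245S calls were fragile: that of TRIM71 was lost under DESeq2 and without WT dish 1 or G245S dish 1 (edgeR or DESeq2 adjusted p up to 0.0764). That of AGO4 was lost under DESeq2 and without WT dish 1 or 3 or G245S dish 1 or 2 (up to 0.164), and that of TARBP2 without WT dish 3 or G245S dish 2 (up to 0.135). Those of DICER1 and AGO2 were kept in all 17 alternatives in both mutants.

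Of 9 La-related and poly(A)-binding partners, 2 were higher with G245S and 0 lower, and 1 was higher and 1 lower with R273H. RACK1, a protein of the small ribosomal subunit, rose from 1881 ± 38.4 CPM to 2140 ± 25.6 and 2033 ± 10.6 CPM (edgeR adjusted p = 8.4e-08 with G245S). EIF4G1, the scaffold of cap-dependent initiation, rose with G245S, from 1314 ± 14.6 to 1411 ± 14.2 CPM (edgeR adjusted p = 0.000388), and was higher there than with R273H (log2 0.088, edgeR adjusted p = 0.0158). The difference of EIF4G1 between the mutants did not pass when any 1 dish of either mutant other than G245S dish 3 was left out (edgeR adjusted p up to 0.106). LARP6 fell with R273H, from 14.4 ± 2.17 to 12.0 ± 0.410 CPM (edgeR adjusted p = 0.0293), a call that failed with DESeq2 and without WT dish 1 or 2 or R273H dish 1 or 2 (adjusted p up to 0.295 by either tool, DESeq2 or edgeR). PABPC1, the main cytoplasmic poly(A)-binding protein, was at 878 ± 12.5, 867 ± 10.8 and 894 ± 10.3 CPM and did not pass.

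**Figure D5:**
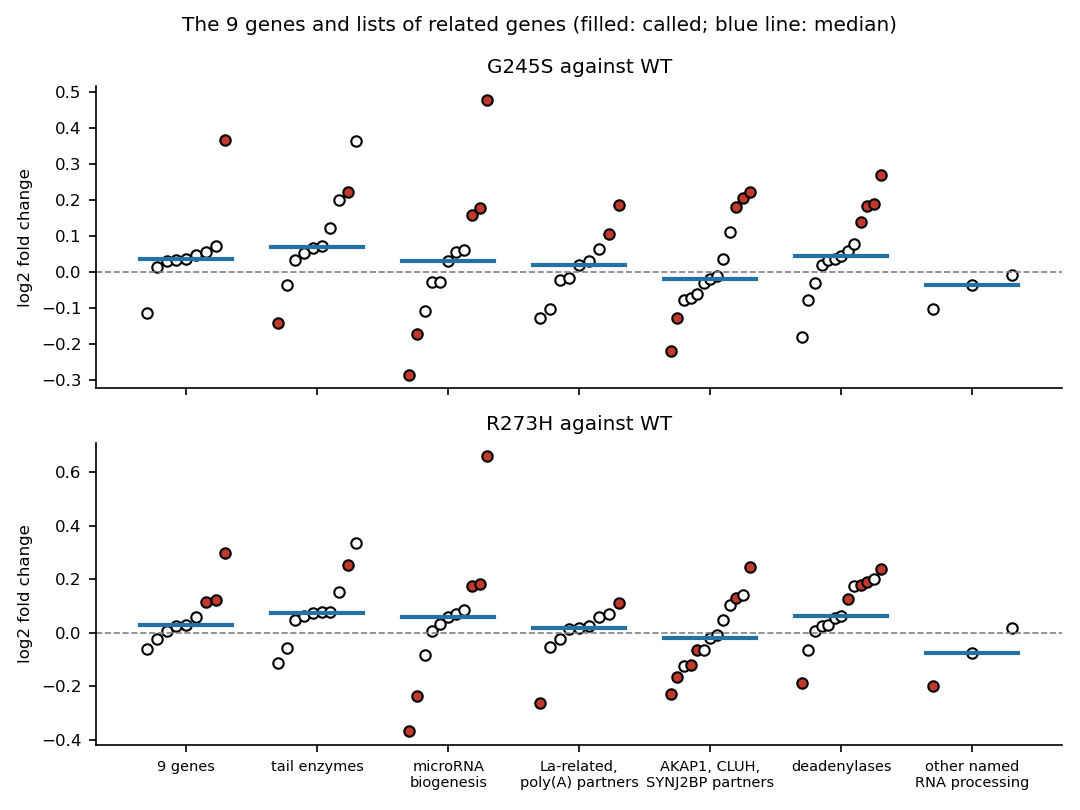
Log2 fold change (y axis) of the 9 genes and of the tested genes in 6 lists of related genes, with called genes filled and the median of each list as a blue line, for each mutant against WT. Medians lie between -0.038 and 0.068 with G245S and between -0.075 and 0.075 with R273H, and TRIM71 is the highest point in both.

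Among 13 partners of AKAP1, CLUH and SYNJ2BP, 3 were higher and 2 lower with G245S, and 2 were higher and 4 lower with R273H. DNM1L, the fission GTPase that protein kinase A at AKAP1 phosphorylates, rose from 131 ± 0.309 CPM to 151 ± 7.36 and 156 ± 5.30 CPM (edgeR adjusted p = 6.1e-05 and 2.4e-06). PINK1, the mitophagy kinase whose mRNA is tethered through SYNJ2BP, was at 36.7 ± 0.205 CPM with WT, 35.9 ± 0.440 CPM with G245S and 31.3 ± 0.818 CPM with R273H. It fell with R273H (edgeR adjusted p = 0.00064) and was lower there than with G245S, by 0.20 on the log2 scale (edgeR adjusted p = 0.0241). The fall against WT was kept in all 17 alternatives, whereas the difference of PINK1 between the mutants was kept in 10 of them and lost, among other settings, without any 1 mutant dish other than G245S dish 3 (adjusted p up to 0.139 in edgeR or DESeq2). PRKAR2B, a regulatory subunit of protein kinase A, was higher with G245S at 22.8 ± 1.34 against 19.6 ± 1.79 CPM (edgeR adjusted p = 0.0346). This call was kept in 12 of the 17 alternatives (adjusted p up to 0.169 in edgeR or DESeq2, lost without WT dish 1 or 3 or G245S dish 2 or 3). Other subunits went both ways. PRKAR2A was higher in both mutants (edgeR adjusted p = 0.000109 with G245S and 0.00215 with R273H), and PRKAR1A was lower in both (edgeR adjusted p = 0.00164 and 7.6e-05). PRKACA was lower with R273H (edgeR adjusted p = 0.0126), and PRKAR1B and PRKACB did not pass. How these calls fare under the alternatives was not examined.

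Of 13 deadenylase genes, 4 were higher and 0 lower with G245S, and 4 were higher and 1 lower with R273H. CNOT1, the scaffold of the CCR4-NOT complex, rose from 307 ± 3.51 CPM to 348 ± 11.4 and 350 ± 3.56 CPM (edgeR adjusted p = 5.8e-06 and 2.0e-06). CNOT10 rose from 95.2 ± 0.997 CPM to 108 ± 6.88 and 112 ± 1.91 CPM (edgeR adjusted p = 0.000503 and 1.7e-05). PAN3, the partner of the PAN2 deadenylase, was higher with G245S at 15.9 ± 0.552 against 13.2 ± 0.607 CPM (edgeR adjusted p = 0.0146), a call that failed with DESeq2 and without WT dish 2 or G245S dish 1 (adjusted p up to 0.0587 in edgeR or DESeq2). Of the 3 other RNA-processing proteins that the study named beside ZC3H7B and TUT4, TRA2B and SARNP did not pass. The splicing factor SRSF2 fell with R273H, to 511 ± 4.07 CPM from 586 ± 5.17 CPM with WT (edgeR adjusted p = 2.2e-07), and was at 571 ± 15.3 CPM with G245S, higher than with R273H (log2 0.16, edgeR adjusted p = 0.000241). Both SRSF2 differences were kept in all 17 alternatives.

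The genes whose footprints followed those of the called members most closely were found among 12656 genes whose counts averaged 100 or more, by Pearson's r of log2 CPM over the 9 libraries, which share groups and composition. For CLUH these were NID1, a basement-membrane protein, and PWP2, a factor of small-subunit ribosome assembly, both at r = 0.992. ECD and the pseudogene RPL21P120 were nearest to LARP4, both at r = 0.958, and reads of the pseudogene are uncertain because many near-identical copies exist. ZNF711 at r = 0.985 and FASTKD2, a mitochondrial RNA-binding protein, at r = 0.984 were nearest to ZC3H7A.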

How the data were processed

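Ribosome-protected fragments of HEK293T cells carrying WT, G245S or R273H p53 constructs were sequenced after cycloheximide treatment, micrococcal nuclease digestion and isolation of monosomes. The authors deposited estimated counts per gene, not normalized and not whole numbers, for 3 dishes per group, made from trimmed, rRNA-filtered reads aligned to the genome. The submitters' processing notes and the study's methods name FastQC, Trim Galore, cutadapt, UMI-tools, SortMeRNA, STAR, SAMtools, MultiQC and GRCh38. The counting tool, annotation, strand setting and fragment-length filter are not given in the sources used here. Cycloheximide, nuclease preference and the loss of ribosomes outside monosomes can shift the counts of individual genes.

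Counts were rounded, filtered with filterByExpr (minimum count 10), scaled by TMM (factors 0.987 to 1.01) and fitted in edgeR 4.0.16 (R 4.3.3) with the robust quasi-likelihood test, all 9 libraries and group as the only term (6 residual degrees of freedom, biological coefficient of variation 2.58%). Benjamini-Hochberg adjustment ran over all 19820 genes tested, with calls at 0.05. CPM uses TMM-scaled library sizes. Each dish was counted as 1 replicate. Dishes of 1 group differed by more than counting noise (chi-square per degree of freedom 1.48 to 2.62), which does not show that they were independent cultures. Gene models came from GENCODE on GRCh38. The scripts were tested on simulated data.

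Every one of the 9 members is named. From each list up to 3 genes were named, those called against WT with the largest log2 fold change. DICER1, AGO2, LIN28B, PABPC1, COX16, SYNJ2BP-COX16 and the protein kinase A subunits other than PRKAR2B were added after their values were seen. The 2 nearest genes are given for each called member. The members and lists were chosen with earlier results of these data known. The 17 alternatives were RLE and upper-quartile scaling, no filter, a replicate block, removal of a spline trend in coding length and GC content, unrounded counts, only the 2 groups compared, DESeq2 1.42.0, and leaving out each of the 9 libraries.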

Additional observations from a re-analysis of the deposited data

How the results depend on the processing

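CLUH kept its call in both mutants under all 17 alternatives, and the count of members called stayed at 1 with G245S. With R273H the count fell from 3 to 1 with the dependence on GC content and coding length removed, and was 2 to 3 when single libraries were left out. Between the mutants it was 0 to 1 when single libraries were left out, the 1 being LARP4 without G245S dish 3. Of 459 alternative values for the 9 genes, 427 kept their direction and side of the threshold, 6 lost a call, 1 gained one and 25 changed sign. All that changed sign were small differences that passed no test. With that dependence removed, against WT in R273H, SYNJ2BP was at 0.038, TUT4 at -0.053 and TUT7 at -0.0014. Between the mutants under the same removal, LARP1 was at -0.0090, TUT7 at 0.033, ZC3H7A at 0.0057 and ZC3H7B at -0.00671. Without the filter TUT4 was at -0.000327 between the mutants. The causes were not tested.

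When single libraries were left out, the values that could change sign with G245S were LARP4 (-0.015 to 0.061), TUT4 (-0.033 to 0.062) and TUT7 (-0.0035 to 0.091). With R273H they were AKAP1 (-0.038 to 0.00041), TUT4 (-0.040 to 0.054) and ZC3H7B (-0.022 to 0.075). Between the mutants they were SYNJ2BP (-0.19 to 0.055), TUT4 (-0.012 to 0.038), TUT7 (-0.063 to 0.032) and ZC3H7B (-0.017 to 0.062).

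Dishes of different groups share replicate numbers, but nothing says that a number marks a shared day. Same-numbered libraries deviated together weakly (r 0.042 to 0.23, over 0.1 in 4 of 9 pairs), while differently numbered ones had r of -0.18 to 0.058. In 17 of 18 comparisons of a library with another group, the best correlation was with its own number. This is a hint from the data, and the main model has no term for the number. With the replicate block 1, 3 and 0 members were called, as without it. Over all genes the block gave 5779, 6547 and 1262 calls against 4900, 5707 and 513, and 5 genes of the related lists differed between the mutants against 3 (1 to 4 when single libraries were left out). The all-gene count between the mutants fell to 162 and 204 when G245S dish 1 or 2 was left out, and to 222, 233 and 295 when R273H dish 1, 2 or 3 was. SYNJ2BP had the fewest counts, at fewer than 10 CPM in each library, and the split of reads with its read-through gene is uncertain. What sets its wide intervals was not tested.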
